A study of Mus musculus with 4 samples.

Results

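Atria of Mef2a knockout mice were set against atria of wild type mice, with 1 array on each side. The wild type array held total RNA pooled from the atria of 7 Mef2a+/+ mice and the knockout array that of 7 Mef2a-/- mice, males and females together, at 2 months of age. The same pooling was used for ventricles of both genotypes, which fill the other 2 of the 4 arrays and are given beside the atrial values. The labels name neither the strain nor the knockout allele, nor how many mice of each sex were pooled. The quantity compared is the log2 intensity of each gene's probe set on the knockout atria array minus that on the wild type atria array, so that −1 stands for a 2-fold lower and 1 for a 2-fold higher signal. A gene was kept when the brighter of both arrays reached 5.71, the median over the whole deposited table, called the floor here. Of 18781 named genes 10050 passed it, and 305 of these (3.03%) differed by at least 1.5-fold: 103 (1.02%) were higher and 202 (2.01%) lower in knockout atria. Each group has 1 pooled array, so there is no replicate error and no test. Differences between animals cannot be told apart from differences between genotypes, and "higher" and "lower" describe these arrays.

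MEF2A is a MADS-box transcription factor of the myocyte enhancer factor 2 family, which binds A/T-rich sites in the promoters and enhancers of muscle genes. Its relatives MEF2B, MEF2C and MEF2D bind the same kind of site. Class IIa histone deacetylases hold MEF2 proteins in a repressing state until calcium-dependent kinases send them out of the nucleus. In heart muscle MEF2 factors are known for driving genes of the contractile apparatus, of the costamere, which ties the outermost myofibrils to the membrane, and of energy metabolism. The atria hold, besides cardiomyocytes, the sinus node, nerves, fibroblasts, vessels and epicardium, and a whole-tissue array sums over them. A lower signal from fewer cells of a type and one from less RNA per cell cannot be told apart.

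The tissue labels matched their markers. The atrial cardiomyocyte genes Nppa, Myl7, Myl4, Sln, Bmp10 and Mybphl stood between 11.03 and 12.63 in wild type atria and between 10.92 and 12.50 in knockout atria. Sln, the sarcolipin of the atrial calcium pump, stood at 12.09 and 12.04 in wild type and knockout atria but 5.95 and 5.09 in ventricles. The ventricular markers Irx4 and Hey2 were below the floor on both atrial arrays, while Myl2 (10.33 and 10.29) and Myl3 (9.94 and 9.70) gave signal there and differed little between genotypes. All 6 defining skeletal muscle genes, Myh1, Myh2, Myh4, Mylpf, Pvalb and Actn3, were below the floor, at 5.47 or less. Xist (9.97 in wild type, 9.63 in knockout atria), Eif2s3y (7.69 and 7.42), Uty (7.19 and 7.16) and Kdm5d (5.42 and 5.21, below the floor) differed by less than 1.5-fold, so no strong shift in the mix of sexes was visible.

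The targeted gene itself was not lower. The Mef2a probe set stood at 10.32 in wild type and 10.41 in knockout atria, and at 10.28 and 10.34 in ventricles. The position of its probes relative to the deleted sequence is unknown here, so this signal does not check the genotype label. The relatives gave no difference past 1.5-fold: Mef2c stood at 8.94 and 9.07, Mef2d at 8.97 and 9.02, and Mef2b at 5.41 and 5.77 in wild type and knockout atria. The class IIa histone deacetylases were close too, with ratios of −0.08 for Hdac4, −0.05 for Hdac5, 0.18 for Hdac7 and −0.04 for Hdac9.

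The median log2 ratio over all genes past the floor was −0.03, with 4328 genes above 0 and 5717 below. At 2-fold 65 genes remained (0.647%), 17 higher (0.169%) and 48 lower (0.478%). Differences were small for most members: the median ratio was 0.77 among the higher genes and −0.76 among the lower ones. The median level of the higher genes was 5.80 in wild type and 6.66 in knockout atria, and 44 of them (42.7%) were below the floor in wild type. The lower genes had a median level of 6.92 in wild type and 6.10 in knockout atria, with 72 (35.6%) below the floor in the knockout. A gene that passed the floor only through the array where it is high had to differ, so counts over list members past the floor are descriptions and support nothing. They are to be read beside the 1.02% higher and 2.01% lower over all genes past the floor.

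**Figure D1:**
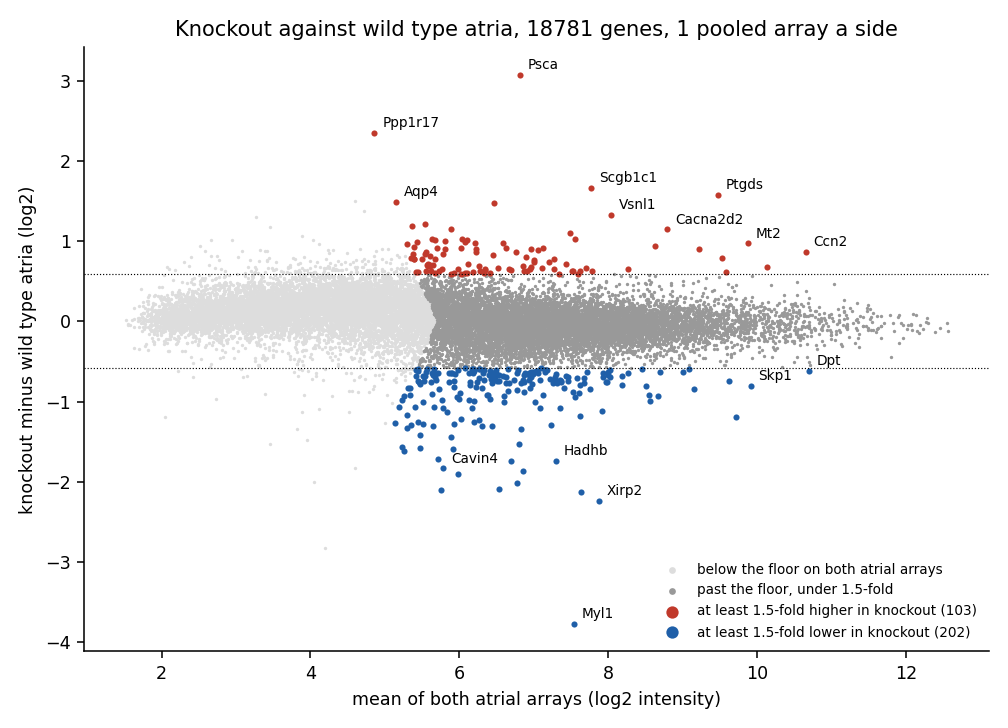
Log2 ratio of knockout over wild type atria (vertical axis) against the mean log2 intensity of both arrays (horizontal axis), 1 point per named gene. Genes past the floor and 1.5-fold are coloured, 103 higher and 202 lower. Myl1 and Xirp2 lie at the bottom, at −3.77 and −2.24, and Psca at the top, at 3.07.

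The threshold cuts a continuous range. Just inside it on the higher side stood Thrsp, Fscn1 and Grk5, each at 0.59, and just outside Pde7b, Fxyd6 and Lypd5, each at 0.58. On the lower side Tnni2, Snora74a and Ly86 stood at −0.59, just inside, and Prim2, Ctla2a and Retreg1 at −0.58, just outside.

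Fast skeletal muscle genes expressed in the heart held the gene with the deepest reduction, Myl1. Of 35 such genes 18 passed the floor, 7 were lower and none higher, with a median ratio of −0.41 against −0.03 over all genes. The lower share was 38.9%, against 2.01% over all genes past the floor. Of the 18, 6 passed the floor through the wild type array alone; over the 12 past it on both arrays 4 were lower with a median of −0.22, and over all 35 the median was −0.10. Myl1, the fast alkali light chain of myosin, stood at 9.43 in wild type and 5.66 in knockout atria, a 13.7-fold lower signal that ended below the floor. It was lower in ventricles too, at 8.09 and 4.47. Casq1, the calsequestrin that stores calcium in fast fibres, fell from 6.93 to 5.02, or 3.75-fold. Tnnt3, the fast troponin T, stood at 6.0 and 5.35. Tnni2, the fast troponin I, stood at 6.37 and 5.79. These are subunits of 1 thin-filament switch, with ratios of −0.66 and −0.59. Neb, the giant nebulin that lines the thin filament, had a ratio of −0.61. Tmod4, a tropomodulin that caps its pointed end, had a ratio of −0.61. Klhl41, a kelch protein that stabilises nebulin, had a ratio of −0.60. Neb, Tmod4 and Klhl41 were past the fold in only 1 of 4 rescalings of the arrays, and the list's count of lower genes ran from 4 to 9 over these. Acta1, the skeletal alpha-actin, at 7.42 and 6.84, and Atp2a1, the fast calcium pump, at 6.24 and 5.66, stopped just short of the fold.

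The working contractile genes of heart did not move with them. Of 35 sarcomere genes past the floor none was lower, the median ratio was −0.08, and 1 was higher. That gene was Tpm3, the slow skeletal tropomyosin, at 5.25 in wild type and 6.16 in knockout atria. It passed the floor through the knockout array alone, and none of the 33 past it on both arrays was past the fold.

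**Figure D2:**
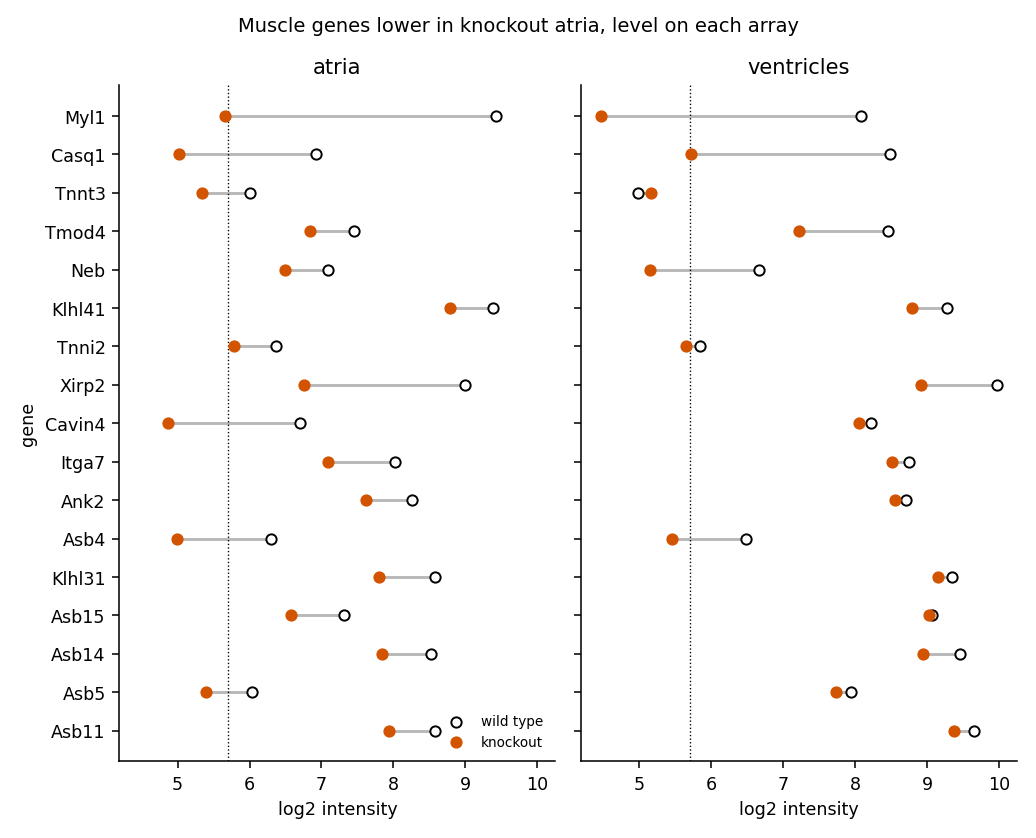
Log2 intensity (horizontal axis) of the 17 muscle genes lower in knockout atria (rows), with open points for wild type, filled points for knockout, atria on the left and ventricles on the right; the dotted line is the floor. In atria Myl1 runs from 9.43 to 5.66 and Xirp2 from 9.0 to 6.76.

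At the costamere, the dystrophin complex and the muscle membrane 39 genes passed the floor, 4 of them lower, and none higher, with a median ratio of −0.09. The lower share was 10.3%, against 2.01% over all genes past the floor. Over the 38 of the list past it on both arrays 3 were lower. Xirp2, whose product myomaxin binds actin at costameres and discs, stood at 9.0 in wild type and 6.76 in knockout atria, a 4.73-fold lower signal. Cavin4, the muscle-restricted cavin of caveolae, stood at 6.70 and 4.87, or 3.57-fold lower. In the knockout Xirp2 remained above the floor, while Cavin4 fell below it. Itga7, the laminin-binding integrin of muscle, had a ratio of −0.94. Ank2, the ankyrin that anchors exchangers and pumps, had a ratio of −0.64. The intercalated disc list, with 22 genes past the floor, held no gene past the fold. Smco1, a membrane protein of striated muscle, stood at 6.63 and 5.41.

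Muscle genes of protein turnover gave 6 lower genes and 1 higher among 24 past the floor, around a median of −0.04 whose sign turned under other scalings. The lower genes were mostly Asb genes, which encode ankyrin-repeat substrate receptors of cullin ubiquitin ligases. All 10 Asb genes of the list were past the floor and 5 were lower: Asb4 (−1.30), Asb15 (−0.74), Asb14 (−0.68), Asb5 (−0.64) and Asb11 (−0.64). Over all genes past the floor 2.01% were lower. Of the list's 24 genes 2, Asb4 and Asb5, passed the floor through the wild type array alone. Over the 22 past it on both arrays 4 were lower and 1 higher, with a median of −0.01. Asb4 stood at 6.30 in wild type and 4.99 in knockout atria, and was the only one of the 5 past the fold in ventricles, at 6.48 and 5.46. Asb14 stood at 8.52 and 7.84 in atria and 9.46 and 8.95 in ventricles. Klhl31, a kelch protein of striated muscle, had a ratio of −0.79. The higher gene was Fbxw18, an F-box gene next to Fbxw15, which was higher as well, at 0.67 and 0.78.

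The promoters of these genes can be read for the MEF2 consensus, an A/T-rich palindrome searched on both strands, from 250 bases before to 50 after the start site in a RefSeq table of build GRCm38.p6. Over the 4 muscle lists, 89 genes past the floor had a promoter in the table and 14 of these (15.7%) held the consensus. Among their lower genes it was 4 of 13 (30.8%), among all lower genes 11 of 156 (7.05%), among higher genes 1 of 76 (1.32%), and among all genes past the floor 188 of 8121 (2.31%). Lower genes outside the muscle lists held it in 7 of 143 (4.90%). Of the 11 matches 3 overlap the TATA box letters TATAAA, which were present in 20 of the lower genes (12.8%) and in 463 past the floor (5.70%). A match is a description of letters and not a bound site. The 4 muscle sites are shown because they lie in promoters of lower muscle genes, with Lsmem1, a muscle-enriched membrane protein gene, for the same reason. Srsf3 is shown as a match that overlaps a TATA box, and Ckb, whose match has the same letters and overlaps it too, as the match of the higher genes. Capitals mark the consensus, and each stretch of 60 bases reads 5′ to 3′ on the gene's own strand.
Xirp2: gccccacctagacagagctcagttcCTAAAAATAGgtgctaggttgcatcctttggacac
Asb14: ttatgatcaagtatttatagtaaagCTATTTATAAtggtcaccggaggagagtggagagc
Asb5: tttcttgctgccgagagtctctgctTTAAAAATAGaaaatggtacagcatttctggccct
Klhl41: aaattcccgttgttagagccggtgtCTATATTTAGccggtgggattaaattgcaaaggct
Lsmem1: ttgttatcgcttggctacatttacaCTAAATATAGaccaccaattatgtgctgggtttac
Srsf3: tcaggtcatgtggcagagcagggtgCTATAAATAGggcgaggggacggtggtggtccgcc
Ckb: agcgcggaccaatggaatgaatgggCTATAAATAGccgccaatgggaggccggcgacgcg
These stretches lie, for Xirp2 at chr2:67445903-67445962 on the plus strand, for Asb14 at chr14:26894559-26894618 on the plus strand, for Asb5 at chr8:54571333-54571392 on the plus strand, for Klhl41 at chr2:69670032-69670091 on the plus strand, for Lsmem1 at chr12:40199339-40199398 on the minus strand, for Srsf3 at chr17:29032616-29032675 on the plus strand, and for Ckb at chr12:111672333-111672392 on the minus strand. The consensus began between 19 and 81 bases before the start site in these 7 promoters. Lsmem1 stood at 7.66 in wild type and 6.92 in knockout atria. Myl1, Casq1, Cavin4 and Asb4 had no match in this window, which says nothing of other windows.

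Genes of calcium handling and excitation moved little as lists. Of 41 calcium genes past the floor 2 were higher and 1 lower (Casq1), with a median of −0.05 whose sign turned under other scalings. Casq1 passed the floor through the wild type array alone, and over the 39 past it on both arrays 2 were higher and none lower. Vsnl1, a neuronal calcium sensor also enriched in atria, was 2.5-fold higher, from 7.38 to 8.70. Cacna2d2, an auxiliary subunit of voltage-gated calcium channels, was 2.21-fold higher, from 8.22 to 9.37. Micu3, a regulator of the mitochondrial calcium uniporter chosen after its values were seen, was lower at −0.74. Among 25 sodium and potassium channel genes only Kcnj2, the inward rectifier that sets the resting potential, was past the fold, at 7.37 and 6.58. Outside that list Kcnh7, a voltage-gated potassium channel, was higher, from 6.16 to 7.08; by symbol 27 potassium channel genes passed the floor, 1 higher and 1 lower. Slc24a2, a potassium-dependent sodium and calcium exchanger, was 3.02-fold lower, from 6.72 to 5.12. Fgf14, an intracellular growth factor relative that binds sodium channels, stood at 7.10 and 6.10. Of 18 pacemaker and conduction genes 3 were higher (Vsnl1, Cacna2d2 and Irx3, the last at 0.61) and 2 lower (Ntm at −1.0 and Cpne5 at −0.61), around a median of 0.00. These are 16.7% and 11.1%, against 1.02% and 2.01% over all genes past the floor. Over the 16 of the list past it on both arrays 2 were higher and 1 lower. Irx3 was past the fold in 0 of 4 rescalings and Cpne5 in 1.

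Receptors and signals of hormones and transmitters changed in both directions. Among 32 receptor genes past the floor 1 was higher and 4 lower, with a median of 0.05. These are 3.13% and 12.5%, against 1.02% and 2.01% over all genes past the floor. Over the 29 of the list past it on both arrays none was higher and 3 were lower, with a median of 0.04. Ptgfr, the prostaglandin F receptor, stood at 7.79 in wild type and 5.77 in knockout atria, 4.05-fold lower. Npy1r, which receives neuropeptide Y from sympathetic nerves, stood at 7.57 and 5.83. Agtr1a, the main angiotensin II receptor of mouse, stood at 7.63 and 6.55. These 3 receptors signal for pressor or contractile hormones. Mrgprh, a Mas-related orphan receptor, was 4.29-fold lower in atria, from 6.80 to 4.70, and passed the floor through the wild type array alone. Gpr22, an orphan receptor of heart and brain, was higher, from 5.59 to 6.61, and passed the floor through the knockout array alone.

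Among their ligands and enzymes, 18 vasoactive genes past the floor gave 1 higher and 2 lower. Ptgds, which makes prostaglandin D2, was 2.98-fold higher, from 8.69 to 10.27. Ptgs2, the inducible cyclooxygenase upstream of it, was lower, from 6.74 to 6.11. Penk, the precursor of enkephalins, was 2.53-fold lower, from 7.50 to 6.16. In these genes of prostaglandin and peptide signalling the direction thus differed from member to member. In the cascade below the receptors, Gnb3, a G protein beta subunit, was higher (0.72), while Gnai1 (−0.64), the inhibitory alpha subunit, and Rgs7 (−0.79), which speeds its shut-off, were lower. Prkar2b, a regulatory subunit of protein kinase A, had a ratio of −1.08. Pde7a, a cyclic AMP phosphodiesterase, had a ratio of −0.83. Grk5, the kinase that desensitises receptors, stood at 0.59. Among genes grouped by symbol, Rgs7 was the only one of 11 RGS genes past the floor to pass the fold and Pde7a the only one of 15 phosphodiesterases, and Gnb3, Prkar2b, Gnai1 and Rgs7 were chosen after their values were seen.

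Of 62 growth factor genes past the floor 1 was higher and 6 lower, around a median of −0.05 whose sign turned under other scalings. The higher share was 1.61% and the lower 9.68%, against 1.02% and 2.01% over all genes past the floor. Bmp5, a bone morphogenetic protein, was 2.03-fold higher, from 7.04 to 8.07. The lower genes were Sfrp5 (−0.77), an antagonist of Wnt, Igf1 (−0.76), Tgfb2 (−0.73), Pdgfc (−0.71), the receptor Pdgfra (−0.63) and Fgf2 (−0.62). The ligand Pdgfc and its receptor Pdgfra were thus both lower. Pdgfra and Fgf2 were past the fold in only 1 of 4 rescalings. Igf1 stood at 7.64 in wild type and 6.87 in knockout atria. Ccn1 and Ccn2, matricellular genes that respond to stretch, were both higher: Ccn2 stood at 10.22 and 11.08, and Ccn1 at 8.76 and 9.67. Ccn2 was higher in ventricles too, at 0.69.

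**Figure D3:**
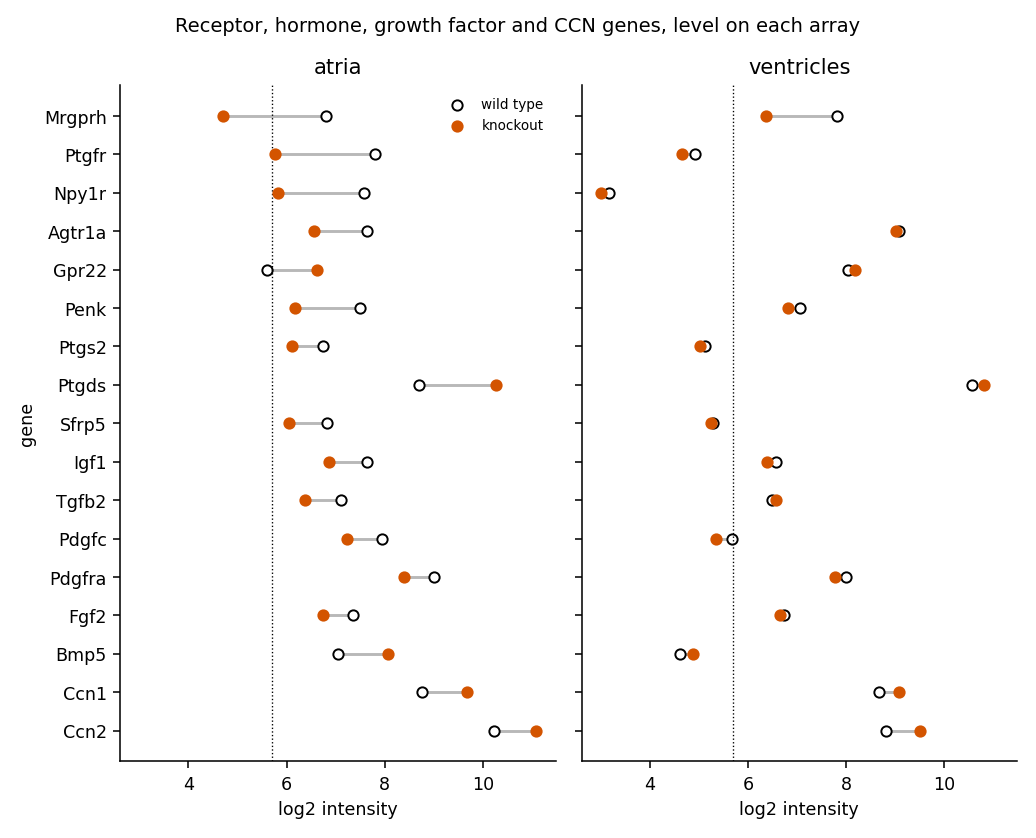
Log2 intensity (horizontal axis) of receptor, hormone, growth factor and CCN genes past the fold in atria (rows), with open points for wild type, filled points for knockout, atria on the left and ventricles on the right; the dotted line is the floor. Ptgfr runs from 7.79 to 5.77 and Ptgds from 8.69 to 10.27 in atria, while the ventricular points of most genes lie close together.

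Among fibroblast and matrix genes 56 passed the floor, 2 were higher and 3 lower, and 40 of the 56 had ratios below 0, with a median of −0.17. Only 1 was lower under both quantile normalizations and lowess centring, since Dpt and Pdgfra were past the fold in 1 of 4 rescalings. Lum and Dpt, small matrix proteins that bind collagen fibrils, were lower at −0.84 and −0.62. P4ha3, a subunit of the enzyme that hydroxylates collagen prolines, was 2.23-fold higher, from 5.32 to 6.47. Meox1, a mesenchymal homeobox factor, had a ratio of 0.78. P4ha3 and Meox1 passed the floor through the knockout array alone. Over the 54 genes of the list past it on both arrays none was higher and 3 were lower, with a median of −0.20. The fibrillar collagens Col1a1 (−0.27) and Col3a1 (−0.37) stayed within the fold, and of 26 collagen genes past the floor only Col6a6, at −0.65, was past it. Matn2 (−0.73), a matrix adaptor protein, Ecm2 (−0.76), a matrix protein related to decorin, and Slit2 (−0.70), a guidance ligand, were lower and were chosen after their values were seen. The log2 of the summed intensity of the fibroblast list, 65 genes, was 15.02 in wild type and 14.82 in knockout atria, and its part in the lower matrix genes was not tested. Scx, a tendon and valve transcription factor, was higher, from 5.59 to 6.57, and passed the floor through the knockout array alone.

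Few genes of the cardiac transcription factor list moved. Of 46 cardiac factors past the floor only Nr2f1, an orphan nuclear receptor of atria, was past the fold, at 6.02 in wild type and 5.33 in knockout atria. It passed the floor through the wild type array alone, and none of the 44 past it on both arrays was past the fold. Of 21 genes listed as MEF2 targets 2 were lower, Xirp2 and Nr4a1, around a median of −0.04 whose sign turned under other scalings. Among 26 immediate early and stress-induced genes 4 were higher and 2 lower. These are 15.4% and 7.69%, against 1.02% and 2.01% over all genes past the floor. Nr4a1 and Nr4a3, nuclear receptors induced within minutes of a stimulus, were lower at −0.69 and −0.71. Gadd45g, a growth arrest gene, was higher at 0.91, and Arc, best known as an activity-induced synaptic gene, at 0.69. None of the 18 clock genes past the floor was past the fold.

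**Figure D4:**
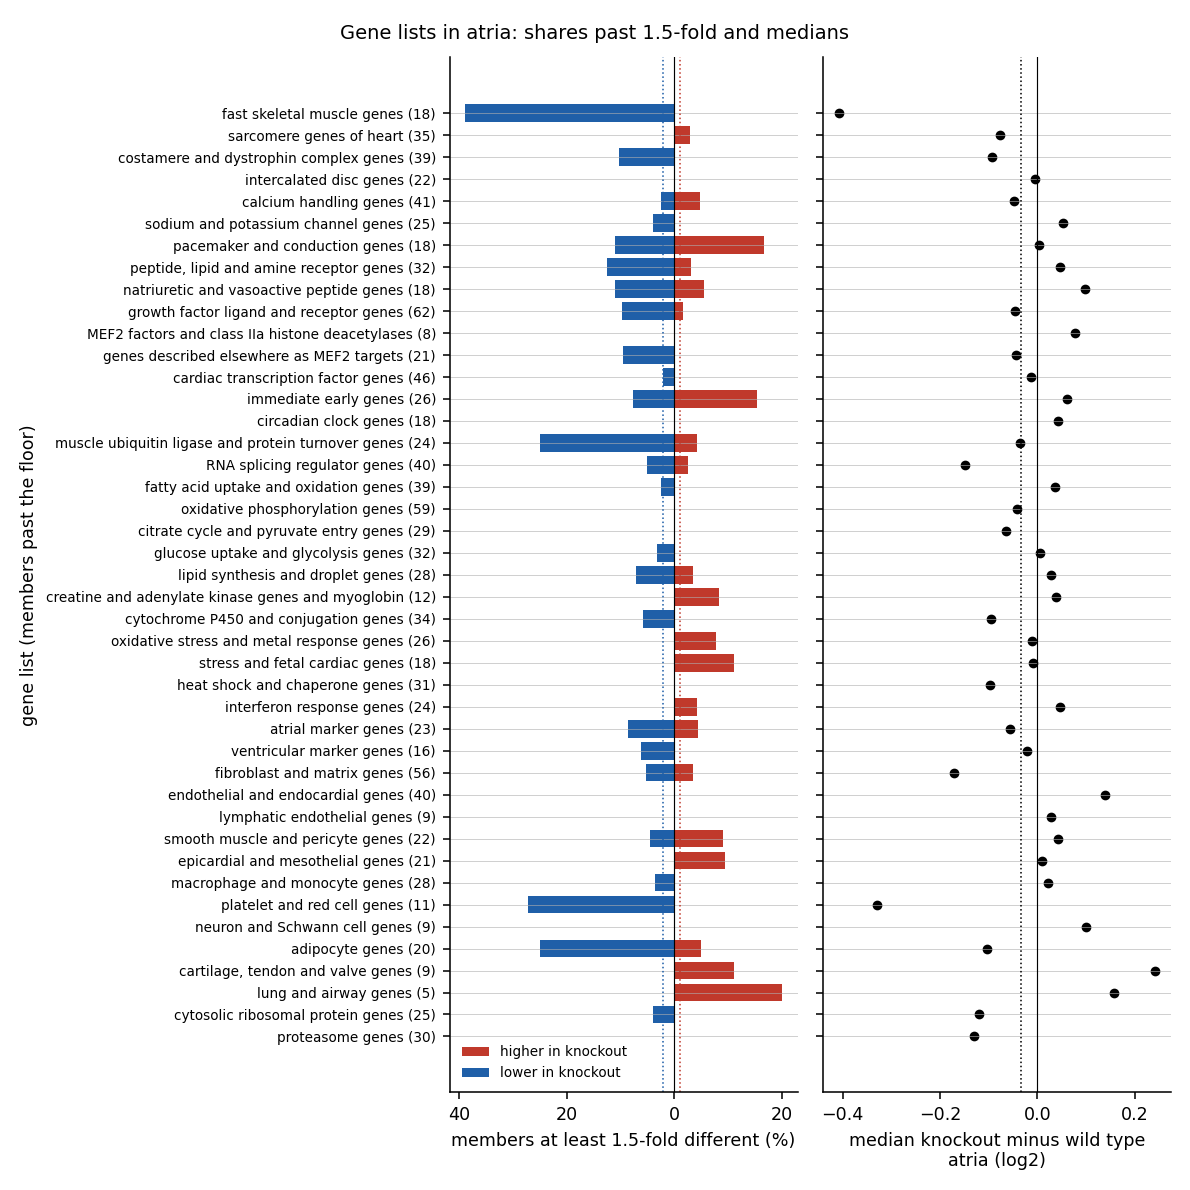
For each gene list (rows, with its number of genes past the floor), bars give the percent of them higher or lower by 1.5-fold in knockout atria, and points in the right panel the median log2 ratio; dotted lines mark the same over all genes past the floor. Fast skeletal muscle genes have the lowest median, −0.41, and most lists lie near that of all genes, −0.03.

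Energy metabolism showed single genes and no shift of a pathway. No gene of 59 oxidative phosphorylation genes or of 29 citrate cycle genes past the floor differed by 1.5-fold, with medians of −0.04, whose sign turned under other scalings, and −0.06. Among 39 fatty acid oxidation genes 1 was lower: Hadhb, the beta subunit of the mitochondrial trifunctional protein, from 8.17 to 6.42, or 3.35-fold. Its ratio in ventricles was 0.00. Hadha, the partner subunit and chosen after its values were seen, had a ratio of −0.07. Slc2a12, a glucose transporter, stood at 7.52 and 6.51 and was the only one of 32 glycolysis and glucose genes past the fold. In fat synthesis Scd1, the stearoyl-CoA desaturase, was lower at −0.93. Acaca, the acetyl-CoA carboxylase, was lower at −0.68 and passed the floor through the wild type array alone. Thrsp, a lipogenic nuclear protein, was higher at 0.59, past the fold in 2 of 4 rescalings. Ckb, the brain-type creatine kinase, was the only one of 12 creatine genes past the fold, higher from 9.14 to 9.93.

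Among oxidation enzymes the genes past the fold were lower. Cyp2e1, a cytochrome P450 that oxidises ethanol, stood at 6.57 in wild type and 4.86 in knockout atria, 3.29-fold lower. Aox3, an aldehyde oxidase, stood at 6.31 and 5.24. They were the 2 members past the fold among 34 genes of that list past the floor, whose median was −0.10, and both passed it through the wild type array alone. Aspa, which splits acetylaspartate, had a ratio of −1.16. Acp1, a small tyrosine phosphatase, had a ratio of −1.12. Abcb4, a phospholipid flippase, had a ratio of −1.07. The metal-binding metallothioneins went the other way: Mt2 stood at 9.39 and 10.36 and Mt3 at 7.22 and 7.84, the only 2 past the fold of 26 oxidative stress and metal genes.

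Car3, the carbonic anhydrase abundant in fat and slow muscle, was 4.26-fold lower in atria, from 7.58 to 5.50, but higher in ventricles, from 5.74 to 6.48. Of 20 adipocyte genes past the floor 5 were lower, Car3, Cyp2e1, Retn (−1.07), Scd1 and Acaca, and 1 was higher, Thrsp. These are 25% and 5%, against 2.01% lower and 1.02% higher over all genes past the floor. Of the 20, 4 passed the floor through the wild type array alone, and over the 16 past it on both arrays 1 was lower (Scd1), with a median of −0.02. The defining fat cell genes Adipoq, Plin1, Lep and Cidec were below the floor on both atrial arrays. The log2 of the list's summed intensity was 12.98 in wild type and 12.90 in knockout atria. The part of fat cells in these differences was not tested.

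Platelet and red cell genes moved as well. Ppbp, the platelet basic protein, was 4.36-fold lower, from 8.69 to 6.57, and Nrgn, a calmodulin-binding protein also found in platelets, went from 7.09 to 5.79. Hbb-bt, an adult beta globin, was lower at −0.74. These were the 3 of 11 genes past the floor that passed the fold, around a median of −0.33. Their share was 27.3%, against 2.01% lower over all genes past the floor. The other platelet markers were within the fold: Pf4 stood at 7.66 and 7.24, Itga2b at 5.94 and 5.72, and Treml1 at 5.84 and 6.24. The log2 of the summed intensity of the 15 genes was 10.60 in wild type and 9.95 in knockout atria. How much blood the tissue held was not tested.

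The other cell type lists held few genes past the fold or none. Endothelial genes, 40 past the floor, held none past the fold. Of these 40 genes 31 had ratios above 0, and the median was 0.14 against −0.03 over all genes. Of 22 smooth muscle genes 2 were higher and 1 lower, and they pointed different ways within the contractile set. Acta2, smooth muscle actin, was higher, from 9.28 to 9.89. Cnn1, the calponin of the same cells, was 2.44-fold lower, from 7.88 to 6.59. The smooth muscle myosin Myh11 stayed at −0.23 and Tagln at 0.14, so these markers did not move together. Of 28 macrophage genes only Ly86 was past the fold, and it was so in only 1 of 4 rescalings; of 21 epicardial genes Slc39a8 (0.63), a zinc importer, and Krt18 (0.60), a simple-epithelium keratin, were higher. None of the 9 neuron and Schwann cell genes past the floor was past the fold.

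Several genes of innate immunity were lower, while a chemokine and an MHC gene were higher. Ifi204 (−1.62), Ifi205 (−1.11), Ifi207 (−0.76) and Aim2 (−0.67) belong to the PYHIN family, whose members sense DNA. They lie in 1 cluster and are close copies, so short probes can be shared between them and single values are uncertain. The complement proteases C1s1 and C1s2, near-identical copies as well, stood at −0.88 and −0.60, and Tlr4, the endotoxin receptor, at −0.64. Clec12a, a myeloid lectin, was lower at −0.93 and was counted as lower in 2 of 4 rescalings. Cxcl9, a chemokine induced by interferon gamma, was higher from 4.81 to 5.78. It was the only one of 24 interferon-response genes past the fold, and passed the floor through the knockout array alone. None of the 21 past the floor on both arrays was past the fold. Cxcl12, which retains stem cells, was lower at −0.65, and H2-Q7, a non-classical MHC gene with close copies, was higher at 1.02. The PYHIN, complement and toll-like receptor genes belong to no list and were grouped after their values were seen.

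Among RNA processing and translation genes few passed the fold. Of 40 splicing genes past the floor 2 were lower and 1 higher, and 31 had ratios below 0, with a median of −0.15. Over the 38 past it on both arrays 1 was lower and none higher, with a median of −0.15. Srsf3, a serine-arginine splicing factor, was 2.71-fold lower, from 6.60 to 5.16. Srsf10 of the same family stood at −0.61. Gemin8 of the SMN complex was higher, from 4.78 to 5.96, and so was Lsm5, part of the ring on U6 RNA, at 1.02. Srsf3 passed the floor through the wild type array alone, and Gemin8 and Lsm5 through the knockout array alone. Among 25 ribosomal protein genes Rpl14 was lower, at −0.65, around a median of −0.12. Other lower genes, chosen after their values were seen, include Nudt21 (−0.95), a subunit of the complex that picks polyadenylation sites, Nova1 (−0.91), a splicing regulator known from neurons, and Eif4e (−0.65), which binds the mRNA cap. Tma7, a small ribosome-associated protein, had a ratio of −1.18. Hmgb1, a chromatin protein, had a ratio of −1.29, and Capza1, an actin-capping protein, one of −1.28. Rpl14, Hmgb1 and genes like them have many processed pseudogenes in the mouse genome, so shared probes make single values uncertain. Small nucleolar RNA genes, 8 past the floor, had 4 lower and a median of −0.58, and over the 7 past the floor on both arrays 3 were lower with a median of −0.57. The 4 are 50% of the 8, against 2.01% lower over all genes past the floor. Whether the small RNA values and the lower RNA processing genes share a source was not tested.

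The higher genes were led by genes usually described in other tissues. Psca, a GPI-anchored surface protein of prostate and other epithelia, was 8.41-fold higher, from 5.28 in wild type to 8.35 in knockout atria. Ppp1r17, an inhibitor of protein phosphatases known from Purkinje cells, was 5.11-fold higher, from 3.68 to 6.04. Scgb1c1, a secretoglobin, was 3.18-fold higher, from 6.93 to 8.60. It stood at 8.79 in wild type and 8.55 in knockout ventricles, so it was above the floor on all 4 arrays. Psca and Ppp1r17 were thus below the floor in wild type atria and above it in the knockout. Lung and airway genes Sftpc and Scgb1a1 were below the floor on both atrial arrays. Aqp4, the water channel of glia, muscle and heart, was 2.81-fold higher, from 4.40 to 5.89. Tbc1d9, a protein with a Rab GTPase-activating domain, was higher, from 5.73 to 7.21. Prh1, a proline-rich salivary protein gene, was higher at 1.22, and so was Stk32b, a serine-threonine kinase, at 1.01. Some higher genes are known from synapses and axons and were chosen after their values were seen: Mapt (0.71), which encodes the microtubule protein tau, Syn2 (0.83), a synaptic vesicle protein, Gabrg3 (0.91) and Gabrr1 (0.83), subunits of GABA receptors, and Kif1a (0.65), an axonal motor. The GABA receptor subunit Gabra3 (−0.63), the glycine receptor subunit Glrb (−0.98) and the receptor partner Neto1 (−0.96) were lower. Mapt, Gabrr1 and Kif1a passed the floor through the knockout array alone, and Glrb through the wild type array alone. The synapse genes were drawn only from those past the fold, 7 higher and 4 lower, so no number tested stands beside them. Beside these stand the olfactory receptors: of 1068 with a probe set 14 passed the floor, 6 of them through the knockout array alone, and 3 were higher. Over the 8 past the floor on both arrays 1 was higher.

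Ratios were tied to the signal level in atria. With all named genes ordered by their mean atrial level and cut into 10 equal bins, the median ratio was 0.08, 0.14, 0.19, 0.18, 0.09, 0.00, −0.06, −0.05, −0.05 and −0.04 from dimmest to brightest. Values of the knockout atria array were also less spread, with an interquartile range of 2.97 against 3.21 in wild type atria and 3.18 and 3.19 in ventricles. The higher genes, 44 of which were below the floor in wild type, overlap the range with medians above 0, and the part of this trend in their ratios was not tested. With lowess centring along the level 111 genes were higher and 209 lower.

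Several functions come only from genes grouped after their values were seen. The group of amine and amino acid enzymes was drawn only from genes past the fold, so no number tested stands beside it. It held 7 genes, all lower. Lower were Odc1, which starts polyamine synthesis, at 6.61 in wild type and 5.85 in knockout atria, and Sat1, which starts polyamine breakdown, at 7.83 and 7.09. Inmt, a methyltransferase of tryptamines, went from 9.06 to 8.06, and Gadl1, a decarboxylase of acidic amino acids, from 8.18 to 7.34. In ventricles the ratios of these 4 were 0.12, −0.07, 0.09 and −0.08. Other enzymes, outside that group, were higher, so its single direction depends on which genes were placed in it. They include Afmid (0.74), of tryptophan breakdown, Ddah1 (0.63), which clears an inhibitor of nitric oxide synthase, and Nmrk2 (0.63), a nicotinamide riboside kinase of muscle. In mitochondria the importer subunit Tomm22 (−0.89) and Tfam (−0.60), which packs and transcribes mitochondrial DNA, were lower, and the elongation factor Tufm (0.88) was higher. Tfam was past the fold in 2 of 4 rescalings. Skp1, the adaptor of F-box ubiquitin ligases, was among the brightest lower genes, at 10.32 and 9.51.

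Of 176 solute carriers past the floor 6 were past the fold (3.41%, against 3.03% of all genes), 4 higher and 2 lower. Slc2a12 and Slc24a2 are given above. Slc16a12, a monocarboxylate and creatine transporter, went from 6.60 to 7.23, and Slc13a4, a sulfate transporter, from 5.28 to 6.05. Slc30a3 and Slc39a8 carry zinc in opposite directions across the cytosol boundary and were both higher, at 0.70 and 0.63. Of 6 secreted peptide genes past the fold, grouped after their values were seen, 4 were lower, Penk and Retn above among them. Hamp2, a hepcidin paralog, was higher, from 6.37 to 7.01, and Enho, the precursor of adropin, from 6.04 to 6.64. Chrdl2, a bone morphogenetic protein antagonist, was higher, from 4.94 to 5.93.

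The remaining genes at least 2-fold lower fall in several functions. Arhgap20 went from 7.78 to 5.92, and Rab33a, a small GTPase of vesicle traffic, from 6.07 to 4.82. Sema6c, a transmembrane semaphorin, had a ratio of −1.53, Plppr5, a relative of lipid phosphatases, −1.58, and Tubb2b, a beta tubulin, −1.31. Cdk10, a cyclin-dependent kinase, stood at −1.41, the histone gene H2ac21 at −1.27, the RNA-binding Rbm12b1 at −1.33 and the nuclear protein Gon4l at −1.23. Armcx3, a mitochondrial outer membrane protein, and Armh4 had ratios of −1.08 and −1.56. No list holds these genes together.

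Ventricles gave a smaller set: of 9712 genes past the floor there 117 (1.2%) were past the fold, 50 higher (0.515%) and 67 lower (0.69%). The ventricular arrays are not shared with the atrial comparison. Of the 202 genes lower in atria 160 passed the floor in ventricles, where 24 (15%) were lower past the fold and 127 (79.4%) had a ratio below 0, with a median of −0.18. Of the 103 higher genes 60 passed it, 10 (16.7%) were higher past the fold and 47 (78.3%) had a ratio above 0, with a median of 0.19. Over all genes past the floor in ventricles the median ratio was 0.004. Since the members were chosen by their atrial ratio, a smaller ratio on other arrays follows from the choice. Whether the chambers differed could not be tested.

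Among the 24 genes lower in both chambers the fast muscle genes Myl1, Casq1, Tmod4 and Neb and the costamere gene Xirp2 stood out by function. Xirp2 stood at 9.98 and 8.91 in ventricles, a ratio of −1.06 beside −2.24 in atria. Mrgprh had ratios of −2.10 in atria and −1.45 in ventricles. Arhgap20 had −1.87 and −1.69. The others were Armh4, Asb4, Smco1, Acp1, Abcb4, Slc2a12, Fgf14, Clec12a, Pde7a, Cxcl12, the ciliary gene Intu, the ubiquitin ligase gene Rnf150, the mitochondrial folate enzyme gene Aldh1l2, Fam81a, Mamdc2, the host gene Mir100hg and 1 clone-named gene. The 10 genes higher in both were Psca, Aqp4, Tbc1d9, Scx, Mt2, Ccn2, Gnb3, Thrsp, the keratin gene Krt80 and Ndnf, a secreted neurotrophic factor. Psca had ratios of 3.07 in atria and 1.44 in ventricles, and Aqp4 1.49 and 1.04. Thrsp, just past the fold in atria, had a ratio of 1.83 in ventricles. The atrial calls of Thrsp, Krt80 and Clec12a each held in 2 of 4 rescalings.

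Cavin4, by contrast, had a ratio of −1.83 in atria and −0.16 in ventricles. Ptgfr (−2.02 and −0.27), Npy1r (−1.74 and −0.15) and Srsf3 (−1.44 and 0.19) were past the fold in atria and not in ventricles, a difference that was not tested. Ptgfr and Npy1r were below the floor on both ventricular arrays, so that no call was possible there. Ppp1r17 stood at 3.15 and 2.83 in ventricles, below the floor. Car3 and a predicted gene, Gm10334, were the only genes past the fold in opposite directions.

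**Figure D5:**
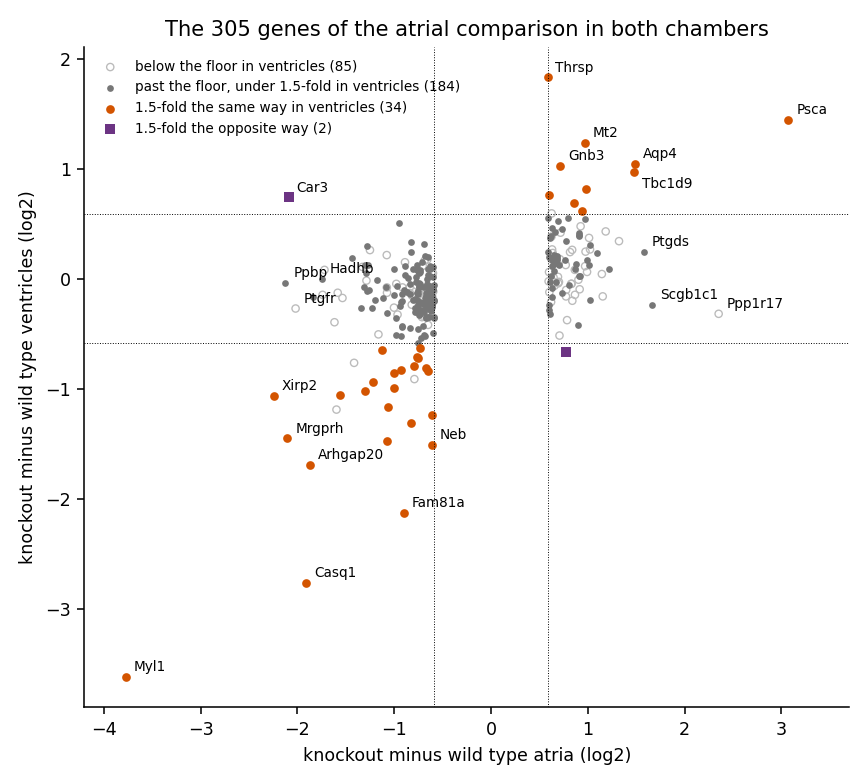
Log2 ratio of knockout over wild type in ventricles (vertical axis) against that in atria (horizontal axis) for the 305 genes past the fold in atria, 1 point per gene, with open points for the 85 below the floor in ventricles. Dotted lines mark 1.5-fold. Myl1 and Xirp2 lie low in both, Psca and Aqp4 high in both, and Car3 is at −2.09 in atria and 0.74 in ventricles.

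Some members are neighbours on the chromosome. With 10046 genes past the floor placed in RefSeq order, 23 adjacent pairs were both past the fold, 19 in the same direction and 4 in opposite ones. Of all genes past the floor 3.03% were past the fold. Whether the pairs exceed what that share gives by placement alone was not tested. Same-direction pairs included the family copies above, as well as Mt3 with Mt2 and Abcb1b with Abcb4, all paralogs. Unrelated neighbours were found too. Both lower were Map2k6, a kinase of the p38 pathway, with Kcnj2, Npy1r with Naf1, Glrb with Pdgfc, and Inmt with Mindy4. Also lower were Scin with Lsmem1, Ap5m1 with Armh4, Ifi205 with Rgs7, Naalad2 with Zfp317, and a clone-named gene with Klhdc1. Both higher were Arc with Psca, Psca with Them6, and Ccn1 with Ddah1. The opposite pairs were Ccn2 with Enpp3, Cyp2e1 with Scgb1c1, Rnf150 with Tbc1d9, and Itga7 with an olfactory receptor gene.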

How the data were processed

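RNA was measured on 4 arrays, 1 per genotype and chamber, each from a pool of 7 mice. The authors deposited a log2 intensity for every probe set, made with RMA and the affy package, per the submitters' processing notes. No version or array design is named there. RMA corrects background, evens out arrays, summarises probes and compresses differences near background. The 4 columns did not share 1 distribution, so whether a later step or filter was applied is unknown. The number of arrays limits the precision.

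Probe sets (21212) carry gene numbers; the platform annotation gave 1 symbol for 18786, several for 6 and none for 2420. Symbols were updated through RefSeq of assembly GRCm38.p6 (18775 by number, 6 by accession, 5 kept). Where 5 symbols had several probe sets, the one with the highest mean was kept, leaving 18781 genes. From the log2 values, differences were taken with Python 3.11.15 and pandas 2.3.3, and lowess used a fraction of 0.3. Promoters, present for 8121 of the genes past the floor, came from a RefSeq table of the same assembly. The scripts were tested on simulated data.

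Members and gene lists were chosen with earlier results of these data known. Named genes are those at least 2-fold different (predicted genes, small RNAs and olfactory receptors counted only), list members past 1.5-fold, the MEF2, deacetylase, sex-linked and chamber marker genes, those past the fold in both chambers, and those nearest the threshold; any other was chosen after its values were seen. Alternatives were other floors, 2-fold, and 4 rescalings.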

Additional observations from a re-analysis of the deposited data

Results flagged for a closer look

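Car3 and the predicted gene Gm10334 were past 1.5-fold in opposite directions in the 2 chambers. The log2 ratio of knockout over wild type for Car3 was −2.09 in atria and 0.74 in ventricles, and that for Gm10334 was 0.78 in atria and −0.66 in ventricles. With 1 array per group these differences between chambers were not tested.

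Probe sets without exactly 1 gene symbol stood outside the named comparison. Of 2426 such probe sets 1031 passed the floor in atria, and 18 were higher and 71 lower in knockout atria by at least 1.5-fold, or 8.63%, with a median ratio of −0.06. The share past the fold among named genes was 3.03%.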

How the results depend on the processing

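The counts of 103 higher and 202 lower genes moved with the floor and the fold. Without a floor 289 genes were higher and 269 lower. With the floor at the 75th percentile of all values 35 were higher, 80 lower and 9 shared with ventricles in direction, against 34 at the median floor. Requiring both arrays past the floor gave 59, 130 and 15, and 2-fold gave 17, 48 and 11. Rescaling kept the counts within 1.5 times: 88 to 132 genes were higher and 186 to 244 lower over median centring, quantile normalization of 4 or 2 arrays and lowess centring. Of the 305 genes 255 stayed past the fold under all 4, 85 higher and 170 lower, and none changed sign. Of the 43 lists with at least 5 genes past the floor 23 had a median below 0 as deposited. That number was 13 under either quantile normalization and 15 under lowess; the cause was not tested. At 2-fold 12.8% of lower genes held the MEF2 consensus in the promoter (5 of 39), against 7.05% at 1.5-fold. Over all genes past the floor it was 2.31%. Among these 5 are all 3 matches of lower genes that overlap the letters TATAAA, in Srsf3, Aspa and a clone-named gene. No paired analysis was possible because each group has 1 array; leaving out a replicate was not possible for the same reason. Signal near the floor limits the genes below it on 1 array, 44 of the higher and 72 of the lower ones.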
